A study of Homo sapiens with 6 samples.

Results

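The plasminogen activation system was followed through 5 of its genes in U87 cells, an established human glioma line. The genes were PLAU, PLAT, PLAUR, SERPINE2 and SERPINB2, taken by symbol from the 57905 genes of the count tables, and all 5 were abundant enough to be tested. RNA was sequenced from 6 libraries, 3 of a control group labelled WT with the treatment given as no, and 3 of a group labelled siRBM47 for both genotype and treatment. The protocol attached to all 6 samples describes a lipid transfection of siRNA (100 pmol), so whether the control cells received a transfection is not settled by the labels. The siRNA is directed at RBM47, an RNA-binding protein known to act on the splicing, stability and editing of transcripts. Nothing in the labels tells whether replicates are separate cultures, and p-values then reflect only how these libraries vary, possibly for technical reasons. Because the samples are bulk RNA, fewer cells making a transcript and less of it per cell cannot be told apart.

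Plasmin is a serine protease that dissolves fibrin, degrades matrix glycoproteins and activates other proteases. It arises when plasminogen, a plasma protein, is cleaved by urokinase (PLAU) or tissue-type plasminogen activator (PLAT). Urokinase is held at the cell surface by its receptor (PLAUR), and both activators are blocked by serpins, inhibitors that trap the protease in a covalent complex. In glioma the system is known for its part in the invasion of cells into surrounding tissue.

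Total counts ran from 15575297 to 18128549 per library, and 14578 genes were tested. RBM47 itself was at 1.62 to 5.75 CPM (counts divided by the scaled depth of each library) in control and 2.23 to 3.54 in siRBM47, with a log2 fold change of -0.11 (SE 0.50, adjusted p = 0.942, edgeR). The highest of these values was in control replicate 3, and without that library the sign turned, to 0.76 (SE 0.37, adjusted p = 0.156, edgeR). A fall of the targeted gene was not detected in either fit, and directions are given between libraries as labelled. Control replicate 3 stood apart in other genes too. Across genes, its log2 CPM correlated at Pearson r = 0.941 and 0.950 with control replicates 1 and 2, which correlated with each other at 0.988 (genes do not count as independent replicates here). Against siRBM47 replicates 1, 2 and 3, r for control replicate 3 was 0.956, 0.959 and 0.962, each above both values within its own group. These lay inside the span of 0.949 to 0.965 that control replicates 1 and 2 had against the same siRBM47 libraries. Fold changes are therefore given with and without control replicate 3. Of the glial and glioma markers, VIM and CD44 were abundant, while NES was at 203 to 275 and OLIG2 at 59 to 158 counts per library. SOX2 was at 7 to 28 counts, GFAP at 5 to 28 counts and S100B at 0 to 7 counts per library. Markers of other cells were low, at 0 to 0.426 CPM summed over 4 immune genes, 0.271 to 3.19 CPM over 3 endothelial genes and 1.67 to 5.21 CPM over 4 epithelial genes.

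SERPINB2 was the member that differed most, being about 10 times lower on average in the siRBM47 libraries, but 1 of the 3 control libraries was as low as these. PLAUR was lower in siRBM47 only relative to control replicates 1 and 2. PLAU, PLAT and SERPINE2 had small differences whose intervals include 0. By the edgeR quasi-likelihood test, with p-values adjusted by Benjamini-Hochberg over all tested genes and a threshold of 0.05, 0 of the 5 members passed, where 0.22% of all tested genes did. At an unadjusted p under 0.05 there was 1 member, SERPINB2, against 16.1% of all genes; DESeq2 called 1 member (4.37% of all genes) and limma-voom 0 (0.233%). In 0 of the 5 did every library of one group lie above every library of the other, against 22.6% of all genes. Without control replicate 3, edgeR called 2 members, both lower in siRBM47, where 11.2% of all genes were called lower.

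**Figure D1:**
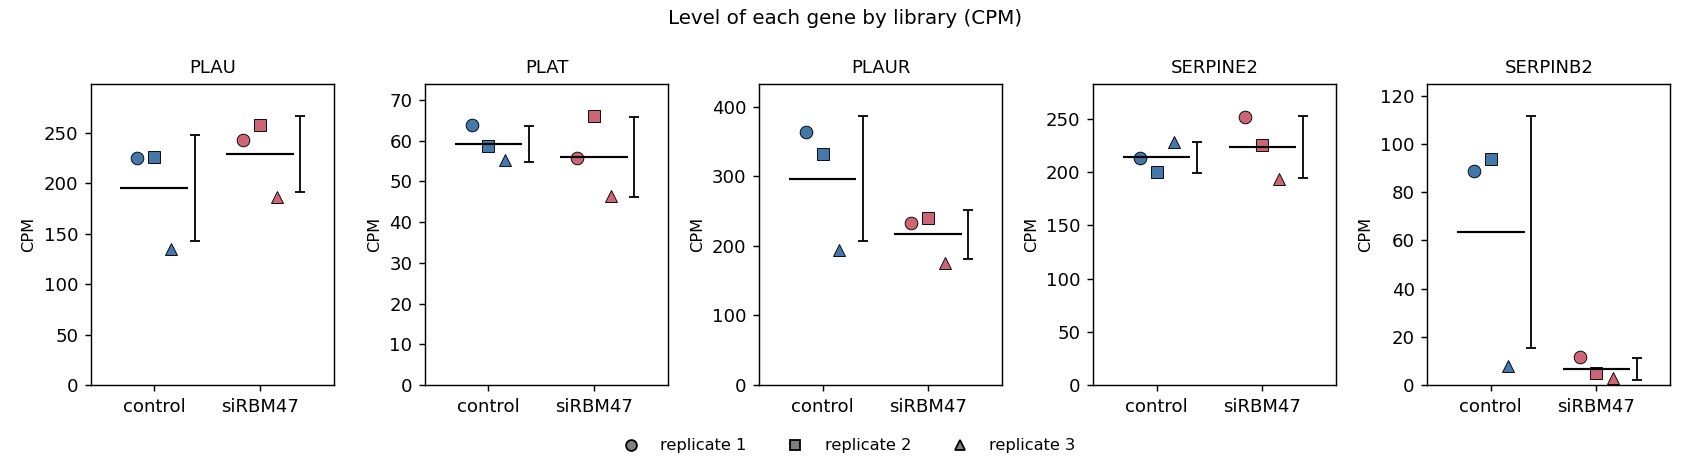
CPM of the 5 genes in each library, by group, on linear axes that start at 0; points are libraries, horizontal bars are means and the error bars beside them are SD (n = 3). For SERPINB2, control replicates 1 and 2 sit at 88.9 and 93.6 CPM and the other 4 libraries at or below 11.6 CPM.

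PLAU encodes urokinase, the activator that works at the cell surface (ENSG00000122861, GRCh38 chromosome 10, 73909177 to 73917497, plus strand, protein-coding). It was measured at 226, 226 and 134 CPM in the control libraries, given here and below in the order of replicates 1 to 3, and at 244, 258 and 187 CPM in the siRBM47 libraries. The lowest library was control replicate 3, and siRBM47 replicate 3 lay below both other controls, so the groups overlapped. Group means were 195 ± 52.7 and 229 ± 37.7 CPM (SD, n = 3 each), with a log2 fold change of 0.23 (SE 0.24, 95% interval -0.31 to 0.77, adjusted p = 0.677, edgeR). Without control replicate 3 the difference was 0.02 (SE 0.16, 95% interval -0.32 to 0.37, adjusted p = 0.937, edgeR). Of the exon sequence of PLAU, 31.1% is overlapped on the opposite strand by C10orf55, and the kit given for these libraries keeps no strand information, so reads there cannot be assigned to either gene by strand. C10orf55 itself held 8 to 24 counts per library, against 2526 to 4512 counts for PLAU.

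PLAT encodes the tissue-type activator, best known for fibrinolysis in blood and for roles in brain (ENSG00000104368, chromosome 8, 42175233 to 42207724, minus strand, protein-coding). Its level was 63.9, 58.7 and 55.2 CPM in control and 55.7, 66.1 and 46.4 CPM in siRBM47. Both the highest and the lowest library were in the siRBM47 group, and control replicate 3 did not stand apart. The log2 difference was -0.08 (SE 0.19, 95% interval -0.51 to 0.35, adjusted p = 0.874, edgeR), which leaves room for a change of either sign within that interval. It was -0.13 without control replicate 3 (SE 0.18, adjusted p = 0.640, edgeR). In FPKM (the authors' values scaled by gene length and depth, which allow genes to be compared), PLAT had the lowest control mean of the 5, at 8.22 ± 0.642 FPKM (SD, n = 3). PLAU stood at 65.5 ± 18 FPKM in the same libraries.

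PLAUR encodes the urokinase receptor, a membrane-anchored protein that concentrates urokinase at the cell edge and contacts integrins (ENSG00000011422, chromosome 19, 43646095 to 43670547, minus strand, protein-coding). It was at 364, 331 and 194 CPM in control and at 233, 240 and 176 CPM in siRBM47. Control replicates 1 and 2 were above the other 4 libraries, and control replicate 3 fell inside the siRBM47 range. The means were 297 ± 90.2 and 216 ± 35.3 CPM (SD, n = 3), a log2 fold change of -0.46 (SE 0.25, 95% interval -1.03 to 0.11, adjusted p = 0.421, edgeR). Without control replicate 3 PLAUR was called lower, at -0.69 (SE 0.16, 95% interval -1.03 to -0.34, adjusted p = 0.00848, edgeR). That fit keeps only 2 controls, at 364 and 331 CPM, and 21.2% of all genes pass in it. Over the 12 alternatives the adjusted p of PLAUR ran from 0.00848 to 0.761.

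SERPINE2, also called protease nexin-1, is a serpin of glial and other cells that blocks thrombin, urokinase and the tissue-type activator (ENSG00000135919, chromosome 2, 223975112 to 224039319, minus strand, protein-coding). It was measured at 213, 200 and 229 CPM in control and at 252, 226 and 194 CPM in siRBM47. The siRBM47 libraries spanned the control values on both sides, and control replicate 3 was the highest control. The log2 difference was 0.07 (SE 0.18, 95% interval -0.33 to 0.46, adjusted p = 0.890, edgeR), and 0.12 without control replicate 3 (SE 0.15, adjusted p = 0.624, edgeR). Per length it varied less than SERPINB2 in control, at 23.8 ± 1.48 FPKM against 22.9 ± 17.4 FPKM (SD, n = 3). In siRBM47 it was at 25.0 ± 3.28 FPKM, and SERPINB2 at 2.37 ± 1.64 FPKM (SD, n = 3).

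SERPINB2, plasminogen activator inhibitor type 2, is a serpin found mostly inside cells and known as strongly inducible by inflammatory stimuli (ENSG00000197632, chromosome 18, 63871692 to 63903890, plus strand, protein-coding). Its counts were 1313, 1627 and 147 in control and 210, 88 and 54 in siRBM47. On the CPM scale this was 88.9, 93.6 and 7.82 in control against 11.6, 5.03 and 3.02 in siRBM47. Control replicate 3 lay below siRBM47 replicate 1 and above siRBM47 replicates 2 and 3, and it differed from the mean of the other controls by -3.52 in log2 CPM. This gap inside the control group was as wide as the difference between groups, which was -3.27 on the log2 scale (SE 0.81, 95% interval -5.09 to -1.46, unadjusted p = 0.00254, adjusted p = 0.114, edgeR).

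The call for SERPINB2 depended on the tool, on the filter, on a replicate block and on control replicate 3. DESeq2 gave -3.28 (SE 1.04, adjusted p = 0.0414) and limma-voom -2.81 (SE 1.0, adjusted p = 0.218). Without control replicate 3 the edgeR value was -3.8 (SE 0.36, 95% interval -4.57 to -3.02, adjusted p = 1.68e-05). Over the 12 alternatives the adjusted p ran from 3.14e-30 to 0.386, with a negative fold change in each. The lowest came from edgeR with no filter, where the SE was 0.27 against 0.81 with the filter. In that fit the SE was 0.23 for each of PLAU, PLAUR and SERPINE2, so it hardly follows the spread of single genes. SERPINB10 shares 19.9% of the exon sequence of SERPINB2 on the same strand and had 0 counts in every library.

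**Figure D2:**
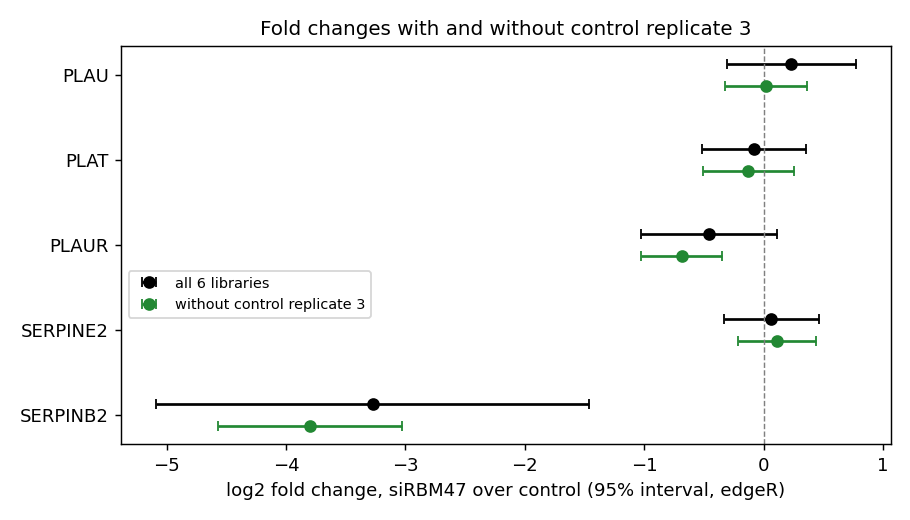
Log2 fold change of each gene, siRBM47 over control, with 95% intervals from edgeR, for all 6 libraries and without control replicate 3. The interval of SERPINB2 lies below 0 in both fits (-5.09 to -1.46 with all libraries), that of PLAUR lies below 0 only without this control, and the other 3 intervals span 0 in both.

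The promoters of SERPINB2 and PLAUR are shown because these are the members whose levels were highest in the same pair of control libraries. They are RefSeq sequences on GRCh38.p14, from 250 bases before to 50 after the start site, and the table matched 4 of the 5 genes by symbol. Capitals mark the AP-1 motif TGANTCA, the cyclic AMP response-like motif TGACNTCA, the TATA box TATAAA and the Sp1 box GGGCGG, each searched on both strands.
SERPINB2 promoter, chr18:63887455-63887754, plus strand: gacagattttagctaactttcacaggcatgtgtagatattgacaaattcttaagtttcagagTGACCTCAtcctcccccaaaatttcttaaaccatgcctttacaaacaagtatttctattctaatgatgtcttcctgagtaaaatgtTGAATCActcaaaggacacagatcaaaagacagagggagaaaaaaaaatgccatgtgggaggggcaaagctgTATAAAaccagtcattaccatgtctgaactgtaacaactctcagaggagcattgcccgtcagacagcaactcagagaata
PLAUR promoter, chr19:43670120-43670419, minus strand: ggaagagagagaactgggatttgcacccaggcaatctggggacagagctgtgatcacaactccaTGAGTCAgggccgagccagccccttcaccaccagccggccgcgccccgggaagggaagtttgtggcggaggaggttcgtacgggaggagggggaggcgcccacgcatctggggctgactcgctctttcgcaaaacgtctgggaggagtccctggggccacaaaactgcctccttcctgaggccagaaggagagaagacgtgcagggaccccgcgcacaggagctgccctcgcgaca
SERPINB2 held an AP-1 match at -102, a response-like match at -188 and a TATA box at -30 from the start, and PLAUR held an AP-1 match at -186. The AP-1 letters occur in 7.71% of the 35116 promoters of this length, the response-like letters in 7.72%, the TATA box in 11.5% and the Sp1 box in 45%. The windows of PLAU and SERPINE2 held none of the first 3 motifs, and the Sp1 box occurred 3 times in 1 window of PLAU and 1 and 2 times in the windows of SERPINE2. Such matches describe letters in a window and say nothing on whether a factor binds there.

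The 3′ untranslated regions were scanned for AU-rich elements, sequences built on the letters ATTTA (with U for T in the RNA) that are known to recruit proteins controlling mRNA decay. They are shown because the targeted protein is one that binds RNA. The 9-base form TTATTTATT, capitals below, was found once in SERPINB2 and once in PLAUR, and was absent from PLAU, PLAT and SERPINE2. PLAU is printed beside them with its nearest pair of ATTTA letters in capitals. The sequences are from GENCODE release 29 transcripts on GRCh38.
SERPINB2, chr18:63903572-63903601, plus strand: ttttactttgTTATTTATTattttatataa
PLAUR, chr19:43648600-43648629, minus strand: aatattcataTTATTTATTttatacttaca
PLAU, chr10:73917418-73917447, plus strand: atATTTAtatttcactatttttATTTAtat
Of 12143 tested protein-coding genes with a 3′ untranslated region of at least 30 bases, 8.84% held TTATTTATT. ATTTA occurred 4 times in the 574 bases of SERPINB2, once in the 310 bases of PLAUR, and 2 times each in PLAU (932 bases), PLAT (760 bases) and SERPINE2 (755 bases), where the median gene had 2 in 1120 bases. The density in SERPINB2, 6.97 per kilobase, was reached by 3.68% of genes, and that in PLAUR, 3.23 per kilobase, by 25.1%. With 5 genes, these letters are a description and were not tested against the fold changes.

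Levels per length place the receptor and its ligand close together in control. PLAUR was at 65.9 ± 20.3 FPKM and PLAU at 65.5 ± 18 FPKM, SERPINE2 at 23.8 ± 1.48 FPKM, SERPINB2 at 22.9 ± 17.4 FPKM and PLAT at 8.22 ± 0.642 FPKM (SD, n = 3). PLAUR and PLAU did not differ beyond their spread. How reads in the overlap with C10orf55 affect the FPKM of PLAU was not tested, so this closeness is approximate. The effect of the overlap with SERPINB10 on the FPKM of SERPINB2 was not tested either. The control mean of SERPINB2 matches no library, since it was at 32.1, 33.8 and 2.80 FPKM, against 23.8, 22.3 and 25.3 FPKM for SERPINE2. In siRBM47 the order was PLAU at 77.2 ± 12.3 FPKM, PLAUR at 48.2 ± 7.66 FPKM, SERPINE2 at 25.0 ± 3.28 FPKM, PLAT at 7.81 ± 1.31 FPKM and SERPINB2 at 2.37 ± 1.64 FPKM. SERPINB2 was thus above SERPINE2 in control replicates 1 and 2 and below it in control replicate 3 and every siRBM47 library. It was below PLAT, at 7.60 FPKM, in control replicate 3 as well.

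The ratio of PLAU to PLAUR separated the groups with little spread inside either, control replicate 3 included. A ratio within a library does not depend on how libraries are scaled. The FPKM ratio was 0.936, 1.03 and 1.05 in control and 1.58, 1.62 and 1.6 in siRBM47. The means were 1.0 ± 0.0596 and 1.6 ± 0.0197 (SD, n = 3), a 1.6-fold difference, and the highest control lay well under the lowest siRBM47 library. Both transcripts were low in control replicate 3, at 44.8 FPKM for PLAU and 42.8 FPKM for PLAUR, and their ratio there matched the other controls. This ratio was singled out after its values were seen, and no p is given for it. Over all other tested genes, 18.8% had a count ratio to PLAUR whose groups did not overlap, 16.7% being higher in every siRBM47 library. Of the 10 pairs among the 5 members, 3 had ratios that did not overlap, and PLAU was in each of them, with PLAUR, PLAT and SERPINB2 as the partner. The pairs share genes and are not independent. No share over all gene pairs was worked out, so this count is only a description.

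The ratio of the 2 activators to the 2 member inhibitors was also higher in each siRBM47 library than in each control. Summed FPKM of PLAU and PLAT over that of SERPINE2 and SERPINB2 was 1.52, 1.5 and 1.87 in control and 2.78, 3.55 and 3.05 in siRBM47, a 1.92-fold difference of means. Other inhibitors are not part of this ratio. These sums were formed after the members' values were known and describe transcripts, not proteins, and no test was applied to them. How often sums of other genes would separate the groups was not worked out.

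**Figure D3:**
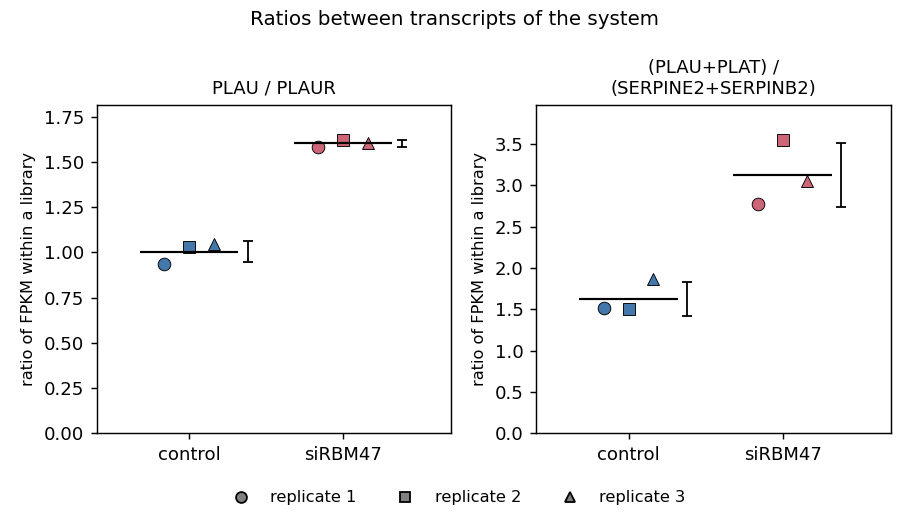
Ratios of FPKM within each library, by group, on linear axes that start at 0; points are libraries, horizontal bars are means and the error bars beside them are SD (n = 3). PLAU over PLAUR runs from 0.936 to 1.05 in control and from 1.58 to 1.62 in siRBM47, and PLAU plus PLAT over SERPINE2 plus SERPINB2 does not overlap between groups either.

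Genes of the wider pathway were taken from 4 lists, with 48 genes reported here, of which 38 were tested. By edgeR 1 of the 38 was lower and 0 were higher in siRBM47 (backgrounds of 0.137% and 0.0823% of all genes), and 8 lay under an unadjusted p of 0.05 (background 16.1%). DESeq2 called 5 lower and 2 higher (backgrounds 2.59% and 1.78%), and limma-voom 1 lower (background 0.144%). The groups did not overlap for 12 of the 38 (background 22.6%). The median log2 fold change of the lists was -0.14, against -0.01 over all genes. Without control replicate 3 the calls were 5 lower and 7 higher (backgrounds 11.2% and 9.97%), with a median of 0.03 against 0.02 over all genes.

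Plasminogen itself (PLG) was at 0 CPM in 5 of the libraries and at 0.0677 CPM in control replicate 1, which was 1 count. Among the further inhibitors, 0 of 6 tested genes passed by edgeR (background 0.22%), with 2 at an unadjusted p under 0.05 (background 16.1%). DESeq2 called 1 higher and 1 lower (backgrounds 1.78% and 2.59%). TFPI2, a Kunitz-type inhibitor of plasmin held in the matrix, was at 1447, 1344 and 122 CPM in control and at 86.1, 52.3 and 43.2 CPM in siRBM47. As for SERPINB2, the gap within the control group was larger than the step from control replicate 3 to the siRBM47 libraries. The groups did not overlap for 2 of the 6 tested genes (background 22.6%), TFPI2 being 1 of them. Its log2 fold change was -4.00 (SE 0.76, adjusted p = 0.0734, edgeR; DESeq2 adjusted p = 0.00216), and -4.53 without control replicate 3 (SE 0.24, adjusted p = 1.97e-07, edgeR). A2M, a broad protease trap, was at 1.02, 0.633 and 2.08 CPM in control and at 3.87, 4.46 and 3.8 CPM in siRBM47 (log2 fold change 1.69, SE 0.44, adjusted p = 0.119, edgeR; DESeq2 adjusted p = 0.0125). A2M was called higher without control replicate 3, at 2.30 (SE 0.38, adjusted p = 0.00125, edgeR). Its control libraries held only 15, 11 and 39 counts.

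The plasminogen receptors, proteins that dock plasminogen at the cell surface through lysine residues, were all 6 tested. Of these, 0 passed by edgeR (background 0.22%), DESeq2 (background 4.37%) or limma-voom (background 0.233%). At an unadjusted p under 0.05 edgeR gave 0 (background 16.1%). DESeq2 and limma-voom gave 1 each, where 2437 and 2346 of the 14578 tested genes lay under it. S100A10 and ANXA2, which form the annexin A2 heterotetramer that binds plasminogen and its tissue-type activator, were higher in every siRBM47 library than in every control. They were the 2 of the 6 receptors whose groups did not overlap (background 22.6%). S100A10 was at 1122, 884 and 812 CPM in control and at 1242, 1376 and 1171 CPM in siRBM47 (log2 fold change 0.43, SE 0.19, adjusted p = 0.314, edgeR; 0.33, adjusted p = 0.126 without control replicate 3). ANXA2 was at 2785, 2709 and 3287 CPM and at 3491, 3816 and 3838 CPM (0.34, SE 0.18, adjusted p = 0.379, edgeR), and was called higher without control replicate 3 (0.44, adjusted p = 0.0295, edgeR).

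Among 14 tested partners of the urokinase receptor and receptors that clear its complexes, 0 passed by edgeR (background 0.22%). At an unadjusted p under 0.05 there were 3 (background 16.1%). DESeq2 called 1 higher and 1 lower (backgrounds 1.78% and 2.59%) and limma-voom 0 (background 0.233%). LRP1, the endocytic receptor that takes up urokinase bound to serpins, was at 373, 381 and 356 CPM in control and at 181, 288 and 183 CPM in siRBM47. Here control replicate 3 was close to the other controls and the groups did not overlap, as in 4 of the 14 genes (background 22.6%). The log2 fold change was -0.77 (SE 0.22, adjusted p = 0.145, edgeR; DESeq2 adjusted p = 0.0388), and -0.79 without control replicate 3 (SE 0.19, adjusted p = 0.00965, edgeR). CAV1, the caveolar coat protein, was at 962, 1074 and 1691 CPM in control and at 2636, 2127 and 2475 CPM in siRBM47 (0.96, SE 0.24, adjusted p = 0.115, edgeR; DESeq2 adjusted p = 0.0113). It was called higher without control replicate 3 (1.24, SE 0.15, adjusted p = 0.000105, edgeR).

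Of 12 tested proteases and receptors above and below plasmin in the cascade, 1 passed by edgeR and was lower in siRBM47 (background 0.137%). By edgeR 3 lay under an unadjusted p of 0.05 (background 16.1%). DESeq2 called 3 lower and 0 higher (backgrounds 2.59% and 1.78%), and limma-voom 1 lower (background 0.144%). The groups did not overlap for 4 of the 12 (background 22.6%). MMP1, an interstitial collagenase whose precursor plasmin can activate, fell from 19.0, 24.6 and 7.98 CPM in control to 0.387, 1.09 and 0.559 CPM in siRBM47 (log2 fold change -4.66, SE 0.52, adjusted p = 0.00955, edgeR). MMP1 rested on 7, 19 and 10 counts in siRBM47, so the size of its fold change is uncertain. The call was lost when any one siRBM47 library was left out, with adjusted p = 0.182, 0.0784 and 0.130 by edgeR for replicates 1, 2 and 3, and the fold change stayed between -4.37 and -5.15. Leaving out control replicate 3 gave -5.00 (SE 0.32, adjusted p = 1.05e-06, edgeR). MMP3, stromelysin-1, was at 165, 185 and 8.73 CPM in control and at 5.97, 4.74 and 5.47 CPM in siRBM47 (-4.47, SE 0.88, adjusted p = 0.0739, edgeR; DESeq2 adjusted p = 0.0021). MMP3 was called lower without control replicate 3, at -5.02 (SE 0.18, adjusted p = 2.15e-09, edgeR). Control replicate 3 was therefore low for MMP3 as it was for SERPINB2 and TFPI2, whereas its MMP1 level lay between the other controls and the siRBM47 libraries. WTAPP1 overlaps 7.61% of the exon sequence of MMP1 and 1.56% of that of MMP3 on the opposite strand.

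Genes whose log2 CPM followed each member most closely over the 6 libraries were sought among 9644 genes whose log2 CPM averaged 3 or more, as a description with no p. For SERPINB2 these were IL1B (Pearson r = 0.999), DNER (r = 0.996) and TXLNG (r = 0.990). IL1B, the cytokine interleukin-1 beta, was at 213, 212 and 18.6 CPM in control and at 25.2, 11.1 and 5.53 CPM in siRBM47, with a log2 fold change of -3.40 (SE 0.83, adjusted p = 0.109, edgeR), and it was called lower without control replicate 3 (-3.92, SE 0.39, adjusted p = 2.69e-05, edgeR). The order of the libraries was nearly that of SERPINB2, with control replicate 3 again between siRBM47 replicates 1 and 2. For PLAUR the closest were HMGB1P6 (r = 0.999), CHTF18 (r = 0.992) and TAGLN3 (r = 0.991). HMGB1P6 is a pseudogene copy of HMGB1, so its counts are uncertain. All of these values share the contrast of control replicates 1 and 2 with the other 4 libraries.

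The genes closest to PLAU were PDCD6 (r = 0.977), ZIC1 (r = 0.977) and SLC12A2-DT (r = 0.974), each lowest in control replicate 3. For PLAT they were RREB1 (r = 0.995), COL7A1 (r = 0.978) and ABCC5 (r = 0.937), each lowest in siRBM47 replicate 3. For SERPINE2 they were ZMYM2 (r = 0.967), SCLT1 (r = 0.958) and ZDHHC17 (r = 0.957), each highest in siRBM47 replicate 1. Different members were therefore followed by genes marking different libraries.

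**Figure D4:**
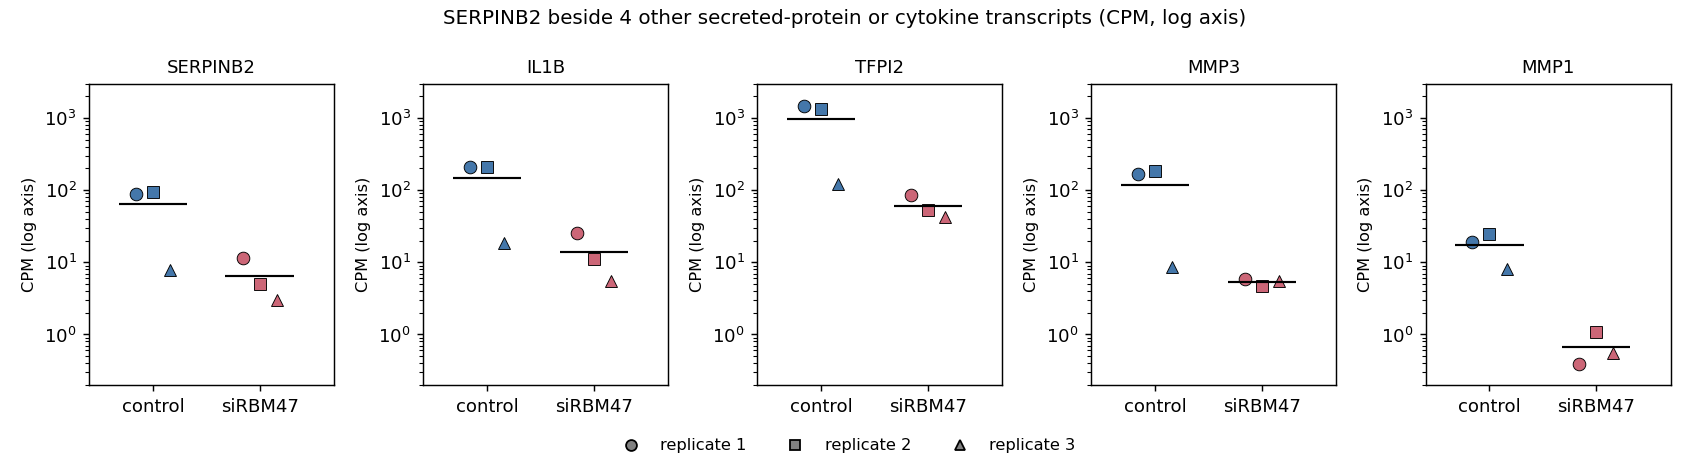
CPM on a log axis for SERPINB2 and for IL1B, TFPI2, MMP3 and MMP1 in each library, by group; points are libraries and horizontal bars are means. In SERPINB2, IL1B, TFPI2 and MMP3, control replicate 3 sits far below control replicates 1 and 2 (7.82 against 88.9 and 93.6 CPM for SERPINB2), while for MMP1 it is at 7.98 CPM against at most 1.09 CPM in siRBM47.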

How the data were processed

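Counts of 6 U87 libraries were used, grouped and numbered by their titles. HISAT2 2.0.5, featureCounts 1.5.0-p3 and hg38 are named in the submitters' processing notes; for the annotation release, strand setting and filters, the sources used here give nothing. Each deposited file lists a whole-number count and an FPKM value per gene, both made by the authors, per the file headers. FPKM served only to compare levels between genes and for ratios, with no test.

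Genes were kept by filterByExpr (minimum count 10) and tested with edgeR 4.0.16 (quasi-likelihood, TMM, Benjamini-Hochberg, threshold 0.05; R 4.3.3). Fold changes are siRBM47 over control; SE is the size of the log2 fold change divided by the root of F. CPM use TMM-scaled library sizes, and log2 CPM a prior count of 2. Alternatives were RLE factors, DESeq2 1.42.0, limma-voom (limma 3.58.1), a replicate block, no filter, a minimum of 50 counts, and leaving out each library. The edgeR step was tested on simulated data. Control replicates 1 and 2, the most alike pair, had a chi-square of counts per degree of freedom of 10.7, and none was treated as a duplicate.

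Symbols came from a table of identifiers, positions from GENCODE release 29. Named were the 5 members, RBM47, list genes past the threshold with the 2 of smallest p per list, and the 3 genes most correlated with each member. The IL1B levels and the ratios were singled out after values were seen. The members and lists were chosen with earlier results of these data known. From the lists, 1 gene is not reported here and is left out of their counts.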

Additional observations from a re-analysis of the deposited data

How the results depend on the processing

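The direction of PLAU, PLAUR and SERPINB2 held in all 12 alternatives. With one library left out, log2 fold changes ran from 0.02 to 0.36 for PLAU, -0.19 to 0.04 for PLAT, -0.69 to -0.27 for PLAUR, -0.03 to 0.16 for SERPINE2 and -3.97 to -2.87 for SERPINB2. The sign of PLAT turned without siRBM47 replicate 3 (0.0415) and that of SERPINE2 without siRBM47 replicate 1 (-0.0263), both small beside their errors. For RBM47 and the 9 other genes named with a fold change, the same alternatives were added after seeing the data. The sign of RBM47 turned with limma-voom (0.0984), with a replicate block (0.118) and without siRBM47 replicate 3 as well as without control replicate 3, with a range of -0.38 to 0.76 when one library was left out; the cause was not tested. The other 9 kept their direction throughout. The replicate block brought TFPI2 (-3.48, adjusted p = 0.0408, edgeR) and IL1B (-3.05, adjusted p = 0.0207, edgeR) past the threshold. SERPINB2 passed by DESeq2 (-3.28), with no filter (-3.26) and with a replicate block (-2.90, adjusted p = 0.0394, edgeR), as well as without control replicate 3; the cause was not tested. The number of genes past the threshold, 32 by edgeR, was 637 by DESeq2, 804 with no filter, 39 with the replicate block and from 0 to 3156 with one library left out (18 and 12 without control replicates 1 and 2, 3156 without control replicate 3, 0 without any one siRBM47 library, where 1494 to 1874 genes had an unadjusted p under 0.05). Pathway genes past the threshold, 1 by edgeR, were 7 by DESeq2, 8 with no filter, 2 with the replicate block and 0 to 12 with one library left out. Whether equal replicate numbers pair the samples is not settled by the labels. The correlation of deviations from group means was -0.0364, 0.127 and 0.116 for numbers 1 to 3. It cannot decide this, since the control deviations mainly set control replicate 3 against the other 2. Correlations of control replicate 3 were -0.844 and -0.767 with control replicates 1 and 2, and 0.302 between those 2. Deviations from a group mean sum to 0, so negative values within a group arise in part by construction. Within siRBM47 they ran from -0.619 to -0.236. PLAU rested on at least 2526 counts in every library, whereas SERPINB2 rested on 54 to 210 counts in the siRBM47 libraries.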
